A study of Mus musculus with 12 samples.

Results

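The expression of 10 genes of the MHC class I antigen presentation pathway was compared in the hippocampus of 3 strains of MRL mice. The members are *H2-K1*, *H2-D1*, *H2-T23*, *B2m*, *Tap1*, *Tap2*, *Tapbp*, *Psmb8*, *Psmb9* and *Nlrc5*, taken as all probes on the array that carry one of these gene names, and they make up 10 of the 29608 gene names measured. They are read by 14 probes on 32 spots, and 7 of the 10 have a single probe. The mice were adult females of about 12 weeks, 4 of each strain. MRL/MpJ mice (called MRL/+ in the study's methods) are the non-lupus background strain and were purchased. MRL/lpr mice carry the lpr loss-of-function mutation of *Fas* on that background and develop lupus-like disease. Fn14koMRL mice were littermates from the MRL/lpr breeding, so that by the methods they carry the *Fas* mutation too, and they also have a knockout of *Tnfrsf12a*, the gene of the TWEAK receptor Fn14. The purchased strain came from another breeder than the other 2. Each mouse gave 1 RNA sample, and 2 mice of the same strain, 1 in Cy3 and 1 in Cy5, shared each of 6 arrays. The labels give the hippocampus as source and tissue, although a free-text line names the cortex.

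MHC class I molecules present peptides made inside a cell to CD8 T cells and to natural killer cells. Cytosolic proteins are cut by the proteasome, whose catalytic subunits can be exchanged for the immunoproteasome subunits encoded by *Psmb8* and *Psmb9*. The peptides are pumped into the endoplasmic reticulum by the transporter of *Tap1* and *Tap2*, and tapasin, the product of *Tapbp*, bridges that transporter to the heavy chain. The classical heavy chains H2-K and H2-D and the non-classical chain Qa-1 encoded by *H2-T23* reach the cell surface with beta-2-microglobulin, the product of *B2m*. NLRC5 is a transactivator of class I genes, and interferons are well-known inducers of the whole pathway. In the brain these genes are low in resting tissue and are known from microglia, endothelium and some neurons.

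Enhancer A and the interferon-response element are the sequences through which NF-kB and interferon-regulated factors are known to act on class I promoters, and the windows of the 4 members that hold a match are shown because enhancer A was found in the 2 classical heavy chains and in no other member searched. In RefSeq promoters of the GRCm38.p6 build, of which the 250 bases before a gene's start were searched, 8 of the 10 members had an entry. *Tap2* and *Nlrc5* had none. The palindrome GGGGATTCCCC, searched on both strands and known as enhancer A of class I genes, was found in *H2-K1* and *H2-D1* among the members and in 10 of all 32851 promoters, or 0.0304%. The windows below give it in capitals, from chr17:34000418-34000488 on the minus strand for *H2-K1* and from chr17:35262893-35262963 on the plus strand for *H2-D1*, and they are identical at 70 of 71 bases.
H2-K1: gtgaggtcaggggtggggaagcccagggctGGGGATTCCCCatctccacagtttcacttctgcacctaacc
H2-D1: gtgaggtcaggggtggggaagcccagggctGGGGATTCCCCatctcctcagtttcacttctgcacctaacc
A pair of interferon-response half-sites, GAAANNGAAA or TTTCNNTTTC on the other strand, was found in *B2m* and *H2-T23* among the members and in 978 of all promoters, or 2.98%. The windows lie at chr2:122147518-122147587 on the plus strand and chr17:36032786-36032855 on the minus strand.
B2m: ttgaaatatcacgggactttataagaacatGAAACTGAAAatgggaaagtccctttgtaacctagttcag
H2-T23: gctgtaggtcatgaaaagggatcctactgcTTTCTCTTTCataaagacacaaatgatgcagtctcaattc
A match gives the letters only and does not show that a factor binds there. Only exact matches were counted, so the lack of a match does not show that a promoter has no such element.

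Heavy chain genes resemble each other, and the probes of 2 members show how far. The *H2-K1* probe at chr17:34133984-34134043 and the *H2-T23* probe at chr17:36167338-36167574, both mm9 and on the minus strand, share an unbroken run of 29 bases, given in capitals.
H2-K1: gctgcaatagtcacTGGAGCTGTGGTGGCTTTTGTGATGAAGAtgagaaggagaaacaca
H2-T23: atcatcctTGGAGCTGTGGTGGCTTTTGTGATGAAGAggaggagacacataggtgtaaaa
How much of either signal comes from related heavy chains was not tested. The array was designed on a reference sequence, whereas MRL mice carry the H2k haplotype, so a heavy chain level here is what bound to the probe.

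Levels are background-subtracted spot intensities divided by the median of their channel, and they can be compared between mice but not between genes. The median is over spots valid in all 12 samples or, on the 10-mouse scale, in the 10 samples outside 1 weak array. In bulk tissue, fewer cells of a type and less RNA per cell cannot be told apart. That array held MRL/lpr replicates 3 and 4, with a median foreground of 1.93 and 1.73 times background against 4.42 to 12.6 in the other 10 samples. In the Cy5 channels of MRL/MpJ (replicates 2 and 4) the negative control spots were bright, at 0.253 and 0.188 of the channel median, against 0.00104 to 0.0276 in the 8 other samples outside the weak array, and *H2-D1*, *Psmb8*, *Psmb9* and *Nlrc5* were not well above background there. *Tnfrsf12a* was 0.151 to 0.189 in the mice labelled Fn14koMRL, 0.241 to 0.439 in MRL/lpr and 0.283 to 0.629 in MRL/MpJ, so it was lowest in the knockout but well above background in all 4; whether its probe lies in the deleted part is not given in the sources used here. Both arrays of a strain lay on 1 slide of their own, so slide and strain cannot be told apart, and p-values measure the spread between these mice and arrays.

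With all 12 mice, no member differed between strains beyond the spread between arrays. The test was limma with array as a random block and dye as a covariate, and a gene was called at an adjusted p under 0.05 over all genes of the fit. It called 0 of the 10 members in each of the 3 comparisons. The 4 members *H2-K1*, *B2m*, *Tap2* and *H2-T23* had spots that passed the filter in all 12 samples, and there 0.079% of 8864 genes were called in MRL/lpr against MRL/MpJ, 0% in Fn14koMRL against MRL/MpJ and 0.0451% in MRL/lpr against Fn14koMRL. The other 6 were taken from the fit without that filter, where 0.172%, 0% and 0.101% of 29608 genes were called. At an unadjusted p under 0.05 the members counted 0, 1 (*H2-D1*) and 0, where all genes reached that level in 16.4%, 3.51% and 17.7% with the filter and in 8.65%, 1.81% and 12.1% without it. Without the array block limma also called 0 members in every comparison at the adjusted level, where it called 9.17%, 0.519% and 3.98% of all genes with the filter and 2.46%, 0.145% and 6.83% without it. The log2 difference from MRL/MpJ was above 0 for 9 of 10 members in MRL/lpr, with a median of 0.57 against -0.01 over all filtered genes, and for 5 of 10 in Fn14koMRL, with a median of 0.02 against -0.16. Between MRL/lpr and Fn14koMRL 7 of 10 were higher in MRL/lpr, with a median of 0.23 against 0.03. Over all genes without the filter the medians were 0.21, -0.97 and 1.34, and against these the 6 members taken from that fit had medians of 0.57, -0.18 and 0.62, so that in MRL/lpr against Fn14koMRL they lay below the median of all genes. In simulated data this test recovered 45% of genes changed by 2 on the log2 scale and 7% of those changed by 1 between MRL/lpr and MRL/MpJ. It also called 6 unchanged genes. The simulation used the 8864 filtered genes and gave a gene the same spread in every sample. So it does not cover the lower signal of the weak array or the 6 members without the filter.

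Without the weak array, heavy chain and associated genes were higher in MRL/lpr and, for the heavy chains, in Fn14koMRL. All 10 members then had filtered values, and limma without a block called 6 of 10 in MRL/lpr against MRL/MpJ, all higher (*H2-K1*, *H2-D1*, *H2-T23*, *B2m*, *Tap2*, *Psmb9*), where 15.7% of 17936 genes were called and 6.11% were called higher. It called 3 in Fn14koMRL against MRL/MpJ, all higher (*H2-K1*, *H2-D1*, *H2-T23*), where 21.1% were called and 10% called higher, and 0 in MRL/lpr against Fn14koMRL, where 9.12% were called; 4 members had an unadjusted p under 0.05 in that last comparison, as 23.3% of all genes did. The median log2 differences of the members were 1.05, 0.34 and 0.51, against -0.10, -0.07 and -0.04 over all genes. Here MRL/lpr is 2 mice on 1 array, so array and strain cannot be told apart for it, and mice that share an array count as independent; with the array as a block the estimated correlation within arrays was negative (-0.26) and 7, 5 and 3 members were called, where 28.6%, 35.7% and 15.9% of all genes were. The 10-mouse comparison is given beside the one of all 12 for the members.

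**Figure D1:**
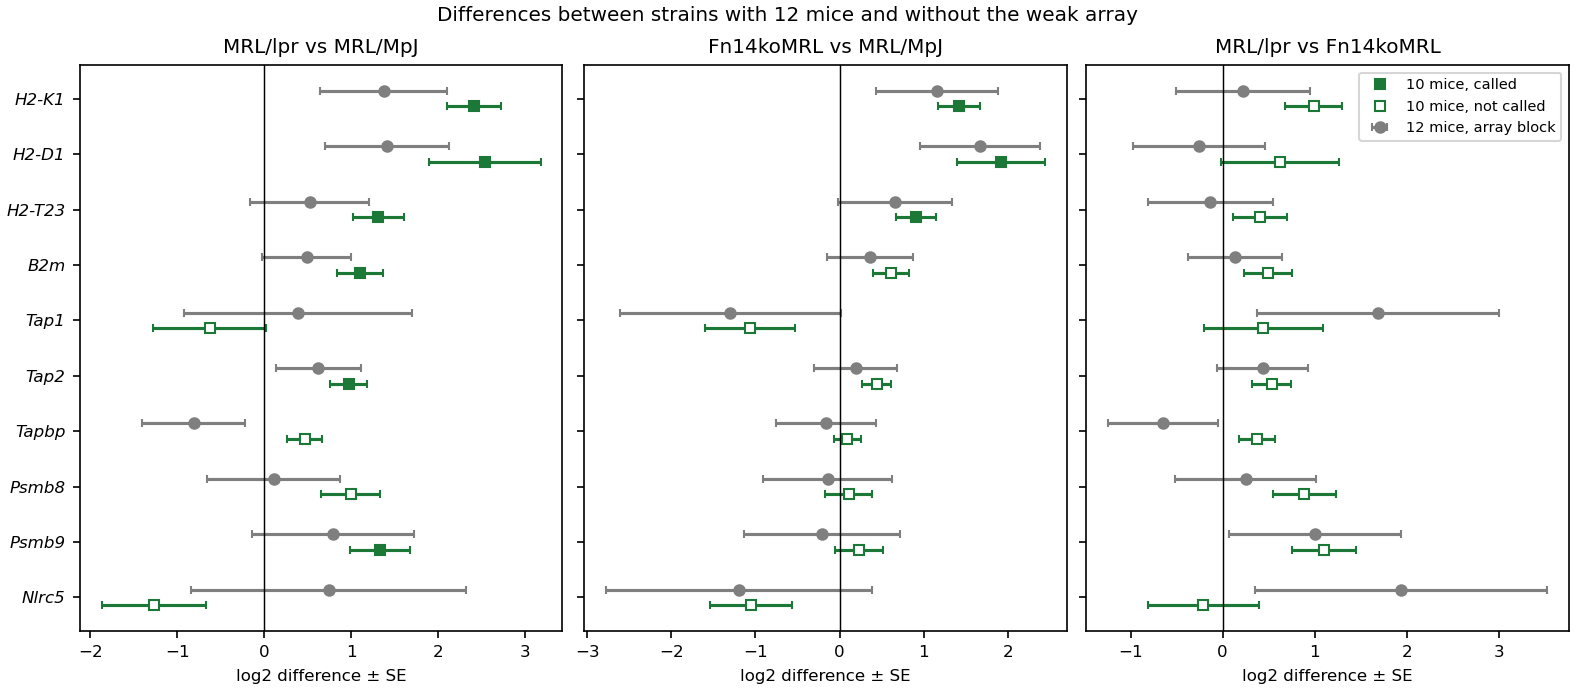
Log2 difference between strains (x axis, with its SE) for each member (y axis), with all 12 mice and array as a block (grey circles) and with the 10 mice outside the weak array and no block (green squares, filled where called at an adjusted p under 0.05). *H2-K1* and *H2-D1* lie farthest to the right in both comparisons with MRL/MpJ, at 2.41 and 2.54 for MRL/lpr with 10 mice, and no grey point was called.

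*H2-K1* encodes the classical heavy chain H2-K. Its level in replicates 1 to 4 was 2.75, 1.84, 0.468 and 0.923 in MRL/lpr. It was 0.652, 1.36, 1.37 and 0.986 in Fn14koMRL. In MRL/MpJ it was 0.338, 0.716, 0.364 and 0.55. The MRL/MpJ mice had the lowest mean (0.492 ± 0.177, SD, n = 4, against 1.09 ± 0.341 and 1.49 ± 1.01), but MRL/MpJ replicates 2 and 4 lay above MRL/lpr replicate 3, and replicate 2 also above Fn14koMRL replicate 1. The groups did not overlap within either dye: all MRL/lpr and all Fn14koMRL mice in Cy3 were above the MRL/MpJ mice in Cy3, and likewise in Cy5, where 8.94% and 10.4% of all filtered genes were higher in this way. With 12 mice the log2 difference from MRL/MpJ was 1.37 ± 0.73 (SE) in MRL/lpr (adjusted p = 0.334) and 1.16 ± 0.73 in Fn14koMRL (adjusted p = 0.998). With 10 mice it was 2.41 ± 0.31 in MRL/lpr (5.31-fold, adjusted p = 0.000781) and 1.42 ± 0.25 in Fn14koMRL (2.68-fold, adjusted p = 0.00593). Over 24 alternatives (another processing, or 1 replicate or the weak array left out), the difference stayed above 0 in all, from 1.00 to 2.44 and from 0.89 to 1.46, and the adjusted p ran from 0.000111 to 0.591 and from 0.00108 to 1. Between MRL/lpr and Fn14koMRL the 10-mouse difference was 0.99 ± 0.31 (adjusted p = 0.0758).

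The 2 *H2-K1* probes with valid spots gave the same order of means. The probe at chr17:34133055-34133114 is printed on 10 spots, and the spread of those spots was 21.5% to 31.5% (coefficient of variation) in the 10 samples outside the weak array and 120% and 93.6% on it. Its level in MRL/MpJ was 0.395 and 0.379 in Cy3 and 0.768 and 0.636 in Cy5. In Fn14koMRL it was 0.818 and 1.77 in Cy3 and 1.85 and 1.41 in Cy5. In MRL/lpr it was 3.34 and 0.672 in Cy3 and 1.98 and 1.59 in Cy5, so that within each dye every MRL/lpr and Fn14koMRL mouse was above both MRL/MpJ mice. The probe of 1 spot gave 0.273 to 0.636 in MRL/MpJ and 0.468 to 0.926 in Fn14koMRL, and in Cy5 those groups overlapped. Another probe had no spot that passed the filter and no position in the files.

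**Figure D2:**
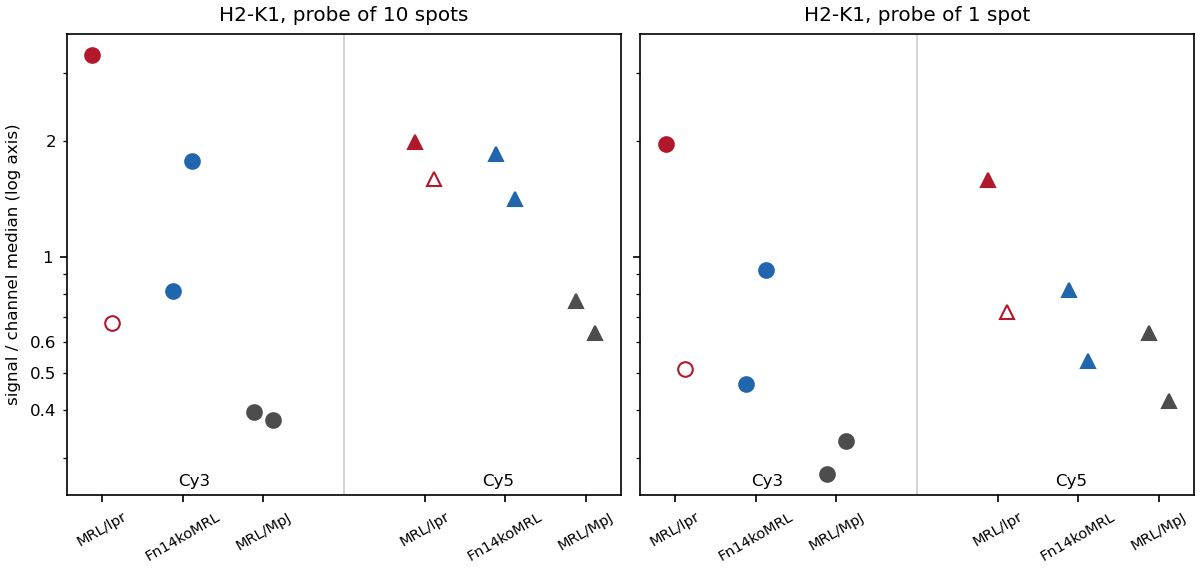
Level of *H2-K1* (signal over channel median, log axis) by strain and dye for the probe printed on 10 spots (left) and the probe of 1 spot (right), 1 point per mouse, with open points for the weak array. On the left the MRL/MpJ mice are lowest within each dye, at 0.379 to 0.395 in Cy3 and 0.636 to 0.768 in Cy5.

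*H2-D1* encodes the classical heavy chain H2-D and is read by 1 probe at chr17:35403886-35403945. Its level was 1.15, 0.956, 0.174 and 0.435 in MRL/lpr replicates 1 to 4, where replicates 3 and 4 were not well above background. It was 0.236, 0.37, 1.62 and 1.2 in Fn14koMRL. In MRL/MpJ it was 0.178, 0.27, 0.166 and 0.21, and 2 of those 4 mice were well above background. MRL/MpJ was low and even, but its Cy5 values of 0.27 and 0.21 lay near the negative controls of those channels (0.253 and 0.188). They were not well above background. Both other strains split by array: the 2 MRL/lpr mice of the weak array were low, and so were Fn14koMRL replicates 1 and 2, which share an array. With 12 mice the log2 difference from MRL/MpJ was 1.41 ± 0.71 in MRL/lpr (adjusted p = 0.615) and 1.66 ± 0.71 in Fn14koMRL (adjusted p = 0.764). With 10 mice it was 2.54 ± 0.64 (5.81-fold, adjusted p = 0.0244) and 1.92 ± 0.52 (3.77-fold, adjusted p = 0.0286), and over the other ways of processing the adjusted p ran from 0.0137 to 1 and from 5.68e-05 to 1. MRL/lpr and Fn14koMRL differed by -0.25 ± 0.71 with 12 mice and 0.62 ± 0.64 with 10 (adjusted p = 0.644).

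*H2-T23* encodes Qa-1, a ligand of NK cell receptors. Its level was 2.14, 1.06, 0.491 and 0.825 in MRL/lpr replicates 1 to 4, where replicates 3 and 4 were not well above background. It was 0.855, 1.26, 1.48 and 0.841 in Fn14koMRL and 0.533, 0.776, 0.643 and 0.812 in MRL/MpJ. Every Fn14koMRL mouse lay above every MRL/MpJ mouse, as 5.88% of all filtered genes did, with 0.841 next to 0.812 at the border. An exact permutation test over these 8 mice (two-sided) gave p = 0.0286, the smallest it can give, in 1 of 30 member comparisons and without adjustment; it takes mice as independent, and over 2 arrays against 2 the smallest p is 0.333. With 12 mice the difference was 0.66 ± 0.68 (adjusted p = 0.998), and with 10 mice 0.91 ± 0.24 (1.88-fold, adjusted p = 0.0258). In MRL/lpr it was 0.52 ± 0.68 with 12 mice (adjusted p = 0.683) and 1.31 ± 0.29 with 10 (2.48-fold, adjusted p = 0.0149). The adjusted p of *H2-T23* over the other ways of processing ran from 0.00301 to 0.853 in MRL/lpr and from 0.00477 to 1 in Fn14koMRL.

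*B2m*, whose product is the light chain of all class I molecules, lies at chr2:121978401-121978460 (mm9) and not in the H2 complex. Its level was 5.29, 3.88, 1.94 and 3.02 in MRL/lpr replicates 1 to 4. It was 2.66, 3.68, 3.01 and 2.84 in Fn14koMRL and 2.75, 1.86, 2.69 and 2.26 in MRL/MpJ. The 2 MRL/lpr mice of the stronger array were the highest of the 12, and the Fn14koMRL and MRL/MpJ ranges overlapped between 2.66 and 2.75. With 12 mice the difference from MRL/MpJ was 0.49 ± 0.51 in MRL/lpr (adjusted p = 0.604). With 10 mice it was 1.10 ± 0.26 (2.15-fold, adjusted p = 0.0187, range over the other ways of processing 0.00398 to 0.769). In Fn14koMRL it was 0.61 ± 0.21 with 10 mice (adjusted p = 0.0646), and that rested on Cy5, where the difference was 1.11, against 0.10 in Cy3. *B2m* was not called between MRL/lpr and Fn14koMRL with 10 mice (0.50 ± 0.26, adjusted p = 0.293).

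**Figure D3:**
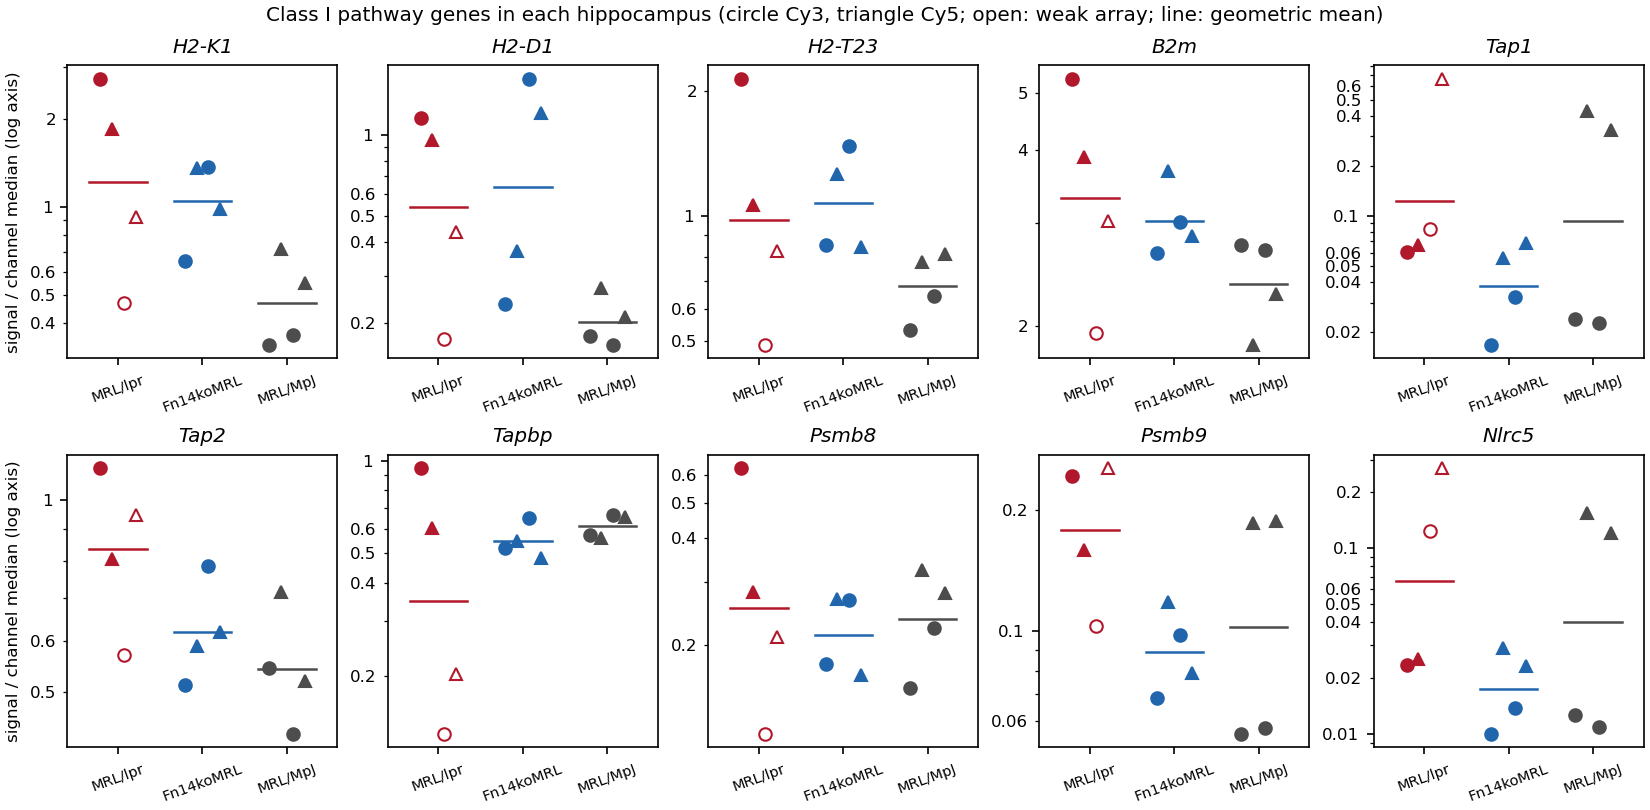
Level of each member (y axis, signal over channel median, log axis with its own range in each panel) in each of the 12 mice by strain, with circles for Cy3, triangles for Cy5, open points for the weak array and a line at the geometric mean. The 4 MRL/MpJ mice are close together for *H2-D1* (0.166 to 0.27), where only 2 of them were well above background. The dim *Tap1* and *Nlrc5* separate by dye in MRL/MpJ.

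Among the genes of peptide loading, *Tap2* was called higher in MRL/lpr than in MRL/MpJ with 10 mice, and *Tap1* and *Tapbp* were called neither there nor in the other 2 comparisons of those mice without a block. *Tap2*, which encodes a subunit of the transporter, was 1.12, 0.808, 0.571 and 0.946 in MRL/lpr replicates 1 to 4. It was 0.512, 0.589, 0.786 and 0.621 in Fn14koMRL and 0.545, 0.717, 0.429 and 0.519 in MRL/MpJ. Within each dye the MRL/lpr mice were above the MRL/MpJ mice, as 8.94% of all filtered genes were. The difference between them was 0.62 ± 0.49 with 12 mice (adjusted p = 0.48) and 0.97 ± 0.21 with 10 (1.96-fold, adjusted p = 0.013, range over the other ways of processing 0.00445 to 0.68). In Fn14koMRL *Tap2* differed from MRL/MpJ by 0.44 ± 0.17 with 10 mice (adjusted p = 0.0912).

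*Tap1*, the partner subunit, was dim. It was 0.0604, 0.0662, 0.0836 and 0.669 in MRL/lpr replicates 1 to 4, the last of them on the weak array and not well above background. It was 0.0167 to 0.0687 in Fn14koMRL. In MRL/MpJ it was 0.0238 and 0.0226 in Cy3 and 0.428 and 0.328 in Cy5, the channels whose negative controls were at 0.253 and 0.188. In Cy3 alone, outside the weak array, MRL/lpr was above MRL/MpJ by 1.10 on the log2 scale, and in Cy5 alone below it by -2.35, so no direction can be given; the 10-mouse difference was -0.62 ± 0.65 (adjusted p = 0.524). The 10 spots of its probe were close in the 10 samples outside the weak array, at a coefficient of variation of 6.17% to 38.9%.

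*Tapbp*, which encodes tapasin, was 0.947, 0.602, 0.129 and 0.202 in MRL/lpr replicates 1 to 4, where replicates 3 and 4 were not well above background. It was 0.483 to 0.649 in Fn14koMRL and 0.56 to 0.664 in MRL/MpJ. The MRL/lpr mice lay on both sides of the other strains, high on the stronger array and low on the weak one, and those other strains overlapped. Its difference between MRL/lpr and MRL/MpJ was -0.81 ± 0.59 with 12 mice and 0.47 ± 0.20 with 10 (adjusted p = 0.128). Between Fn14koMRL and MRL/MpJ it was 0.09 ± 0.16 with 10 mice (adjusted p = 0.698), the smallest difference of any member in that comparison.

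Of the immunoproteasome subunits, *Psmb9* was called higher in MRL/lpr than in MRL/MpJ with 10 mice and *Psmb8* was not. *Psmb9* encodes the subunit beta1i. Its level was 0.242, 0.159, 0.103 and 0.254 in MRL/lpr replicates 1 to 4. It was 0.0686, 0.118, 0.0981 and 0.0789 in Fn14koMRL. In MRL/MpJ it was 0.0557 and 0.0576 in Cy3 and 0.186 and 0.188 in Cy5, where it was not well above background. The MRL/lpr difference from MRL/MpJ was 0.79 ± 0.93 with 12 mice (adjusted p = 1) and 1.33 ± 0.34 with 10 (2.52-fold, adjusted p = 0.0267, range over the other ways of processing 0.00544 to 1), made up of 2.15 in Cy3 and 0.51 in Cy5. Against Fn14koMRL it was 1.10 ± 0.34 with 10 mice (adjusted p = 0.0756). With 12 mice, all MRL/lpr mice were above all Fn14koMRL mice within each dye, as 18.1% of all genes without the filter were. That 12-mouse level averages in a probe at chr17:34322762-34322821 that was not well above background in any sample. On the probe at chr17:34319174-34319233 the Cy3 groups overlapped, with MRL/lpr replicate 3 at 0.151 and Fn14koMRL replicate 3 at 0.186. MRL/lpr replicates 3 and 4 were not well above background on either probe.

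*Psmb8* encodes the subunit beta5i. Its level was 0.628, 0.281, 0.113 and 0.211 in MRL/lpr replicates 1 to 4, 0.165 to 0.27 in Fn14koMRL and 0.152 to 0.325 in MRL/MpJ. Replicates 3 and 4 of MRL/lpr and replicates 2 and 4 of MRL/MpJ were not well above background. MRL/lpr replicate 1 was the highest of the 12 mice and the other 3 were within the range of the other strains or below it. With 10 mice the difference from MRL/MpJ was 0.99 ± 0.34 in MRL/lpr (adjusted p = 0.0726) and 0.11 ± 0.28 in Fn14koMRL (adjusted p = 0.788).

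*Nlrc5*, the transactivator of class I genes, lies at chr8:97030478-97051164 (mm9) and was the dimmest to judge. It was well above background in 6 of 12 samples. Its level was 0.0234, 0.0253, 0.125 and 0.271 in MRL/lpr replicates 1 to 4 and 0.01 to 0.029 in Fn14koMRL. In MRL/MpJ it was 0.0127 and 0.0109 in Cy3 and 0.154 and 0.12 in Cy5. The high values are those of the weak array and of the Cy5 channels with bright negative controls. In Cy3 outside the weak array *Nlrc5* differed between MRL/lpr and MRL/MpJ by -0.16 and between Fn14koMRL and MRL/MpJ by -0.08, and a difference was not detectable at this signal.

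Other class I heavy chain genes were called higher in MRL/lpr too. Of 23 on the array 18 had filtered values with 10 mice. In MRL/lpr against MRL/MpJ 6 of these were called higher and 0 lower, where 6.11% of all genes were called higher. The median log2 difference was 0.32 against -0.10 over all genes. *H2-Q2* was higher by 1.90 (adjusted p = 0.00266), *H2-Q7* by 1.78 (adjusted p = 0.0149), *H2-K2* by 1.76 (adjusted p = 0.00282) and *H2-Q8* by 1.39 (adjusted p = 0.0126). In Fn14koMRL, where 10% of all genes were called higher, 3 were called higher (*H2-Q7* by 1.48, *H2-Q2* by 1.40 and *H2-K2* by 0.89). There 1 was called lower, the zinc-alpha2-glycoprotein gene *Azgp1* (-1.33), which was well above background in 5 of 12 samples. None was called between MRL/lpr and Fn14koMRL, and none in any comparison with 12 mice and the array block, where *H2-K2* differed by -0.10 between MRL/lpr and MRL/MpJ. With 12 mice and no block 1 was called, *H2-Q7* in MRL/lpr against MRL/MpJ (3.00, adjusted p = 0.0258).

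A few genes that act around the members were called, in both directions. With 10 mice, 15.7% of all genes were called in MRL/lpr and 21.1% in Fn14koMRL against MRL/MpJ. Between MRL/lpr and Fn14koMRL the share was 9.12%. Of the 10 proteasome partners 1, 1 and 2 were called in these comparisons. Counts as small as those below do not set a list apart from all genes. Of 11 loading partners 1 was called higher in MRL/lpr and 2 in Fn14koMRL against MRL/MpJ with 10 mice, the translocon gene *Sec61a1* in both (1.71 and 1.58, adjusted p = 0.0232 and 0.0135) and the aminopeptidase gene *Npepps* in Fn14koMRL (0.57, adjusted p = 0.0475), where 6.11% and 10% of all genes were called higher. The aminopeptidase gene *Lnpep* was called higher in MRL/lpr than in Fn14koMRL (1.74, adjusted p = 0.0436). *Sec61a1* was 3.81 and 3.54 in MRL/MpJ in Cy3 and 0.842 and 0.984 in Cy5, on the 10-mouse scale, so its size depended on the dye. Of 10 proteasome partners, *Psmb10*, the remaining immunoproteasome subunit, was called lower in MRL/lpr than in MRL/MpJ (-0.58, adjusted p = 0.0253) and than in Fn14koMRL (-0.75, adjusted p = 0.0113), against the direction of *Psmb9*. Its level was 10.3 and 10.7 in MRL/lpr replicates 1 and 2, 15.6 to 19.3 in Fn14koMRL and 15.5 to 16.1 in MRL/MpJ, all on the 10-mouse scale. *Psme3*, which encodes a proteasome activator subunit, was lower in MRL/lpr than in Fn14koMRL (-0.60, adjusted p = 0.0384), and *Psma3*, a gene of the core proteasome, was higher in Fn14koMRL than in MRL/MpJ (0.45, adjusted p = 0.0479). With 12 mice and the array block no gene of these lists was called, and without the block *Psmb10* was called in MRL/lpr against MRL/MpJ (-1.80, adjusted p = 0.0408).

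Among 13 measured genes of class I transcription, *Irf1*, an interferon-induced activator of class I promoters, was called higher in MRL/lpr (1.23, adjusted p = 0.0099) and in Fn14koMRL (0.78, adjusted p = 0.0263). It was 2.67 and 1.65 in MRL/lpr replicates 1 and 2, 1.19 to 1.94 in Fn14koMRL and 0.733 to 0.999 in MRL/MpJ on the 10-mouse scale. The CCAAT-binding subunit gene *Nfyc* was called higher in Fn14koMRL (0.80, adjusted p = 0.0331). Of 17 measured interferon-induced genes 1 was called higher in each comparison, *Ifi27l2a* in MRL/lpr against MRL/MpJ (1.62, adjusted p = 0.0135) and against Fn14koMRL (1.59, adjusted p = 0.0207) and *Ifit3* in Fn14koMRL against MRL/MpJ (0.77, adjusted p = 0.00608). Their median differences were 0.30, 0.03 and 0.24. Of all genes 6.11% were called higher in MRL/lpr and 10% in Fn14koMRL against MRL/MpJ. Between MRL/lpr and Fn14koMRL 9.12% of all genes were called in either direction. Of 3 measured class I receptor genes, *Cd8b1* was called lower in Fn14koMRL than in MRL/MpJ (-1.29, adjusted p = 0.0486), and its level in MRL/MpJ split by dye (0.0879 and 0.0732 in Cy3 against 0.414 and 0.317 in Cy5, the channels with bright negative controls).

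*H2-D1* separated the 2 Fn14koMRL arrays as few genes did. On the 10-mouse scale it was 0.936 and 1.47 in replicates 1 and 2 and 6.59 and 4.81 in replicates 3 and 4, compared with 0.652 to 0.735 in MRL/MpJ. Array 2 exceeded array 1 by 2.26 on the log2 scale, and among 17936 genes only 1 had a larger difference in that direction, the transcript *LF201050* (2.52), which also lies in the H2 region, at chr17:34264919-34264978. *H2-Q4* (1.10) and *H2-Q7* (1.05) differed in the same direction. These 3 genes were chosen after their values were seen. In either direction, 35 of the 17936 genes, *H2-D1* among them, differed between the arrays at least as much as *H2-D1*. The other members differed by -0.07 to 0.72 between these arrays, *H2-K1* by 0.33, so that *H2-K1* was above every MRL/MpJ mouse on both. The 4 Fn14koMRL mice are 2 pairs on 2 arrays, and whether array or mice made this difference cannot be told apart.

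**Figure D4:**
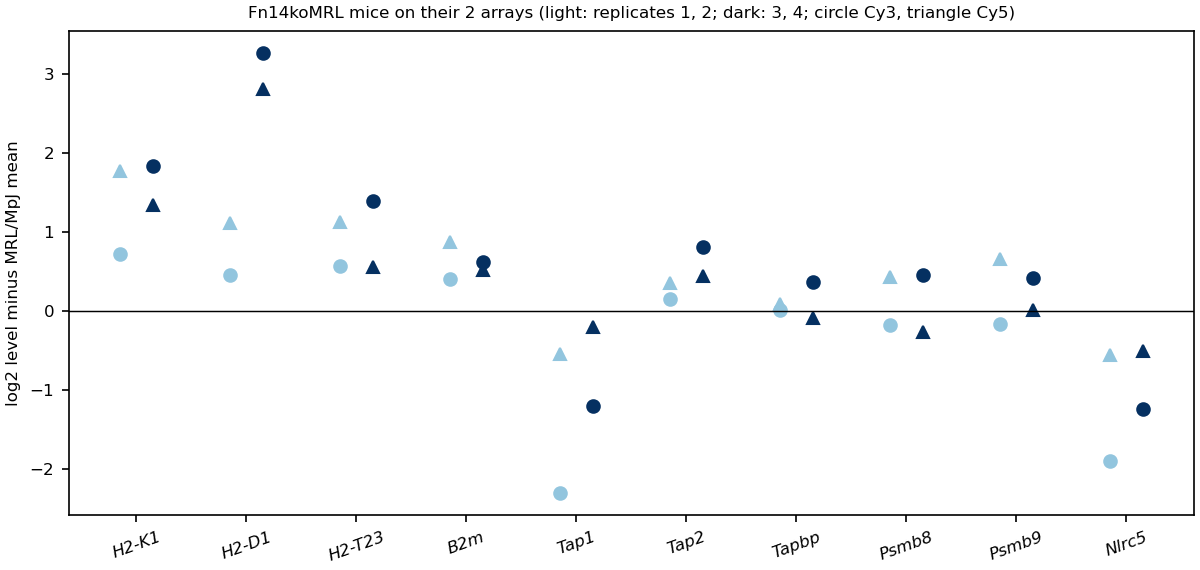
Log2 level of each member in the 4 Fn14koMRL mice minus the mean of the MRL/MpJ mice (y axis, 10-mouse scale), with light points for the array of replicates 1 and 2 and dark points for that of replicates 3 and 4. *H2-D1* is the member whose arrays are farthest apart, by 2.26.

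Of the 10 members, 8 lie on chromosome 17 together with the targeted gene, between 10.3 and 12.4 Mb from the *Tnfrsf12a* probe. Of the 185 genes with filtered values at 10 to 15 Mb from it, 25.4% were called in Fn14koMRL against MRL/MpJ with 10 mice, against 20.9% of the genes on other chromosomes, and 24.9% without the members. Elsewhere on chromosome 17 the share was 21.1% within 5 Mb of the target, 19.8% at 5 to 10 Mb, 23.8% at 15 to 30 Mb and 27.9% beyond 30 Mb. With 12 mice 0% of genes were called in any of these intervals. Some genes had array 2 of Fn14koMRL above array 1 by more than 1 on the log2 scale. They made up 1.47% of genes within 5 Mb of the target and 0% at 5 to 10 Mb. Their share was 3.78% at 10 to 15 Mb, 2.98% at 15 to 30 Mb, 2.65% beyond 30 Mb and 1.13% on other chromosomes. This direction is the one seen in *H2-D1*. In the opposite direction the shares, in the same order, were 0.98%, 0%, 0.54%, 1.19%, 2.65% and 2.26%. Whether Fn14koMRL mice differ from MRL/lpr mice in the DNA around the targeted gene was not tested.

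Markers of other cell types and regions differed between strains beside the members. Of all genes with 10 mice, 15.7% were called in MRL/lpr against MRL/MpJ, and 6.11% were called higher. In Fn14koMRL against MRL/MpJ 21.1% were called and 10% called higher, and in MRL/lpr against Fn14koMRL 9.12% were called. With 10 mice, 5 of 8 measured choroid plexus markers were called higher in MRL/lpr than in MRL/MpJ and 5 of 8 than in Fn14koMRL, and their summed level was 45.2 to 147 in MRL/lpr, 2.47 to 22.2 in Fn14koMRL and 4.01 to 7.07 in MRL/MpJ. *Ttr*, the transthyretin gene that marks choroid plexus, was 126 and 37.7 in MRL/lpr replicates 1 and 2. Of 5 red cell markers 4 and 5 were called higher in MRL/lpr, with sums of 513 to 655 against 102 to 353 and 131 to 191. Microglia markers, as defining genes of cells that can express class I, gave 58.6 to 82.8 in MRL/lpr, 56.8 to 62.8 in Fn14koMRL and 64.1 to 79 in MRL/MpJ, and 0 of 11 were called higher in either strain than in MRL/MpJ and 1 lower in each. The sum of each list is weighted to its brightest genes, such as *Ttr* above. Among microglia markers *Itgam* alone was 24.4 and 40 in MRL/lpr replicates 1 and 2 and 17.9 to 28.9 in MRL/MpJ. The median log2 difference of the microglia markers from MRL/MpJ was -0.19 in MRL/lpr and -0.14 in Fn14koMRL, against -0.10 and -0.07 over all genes. Endothelial markers gave 28.2 to 34.7, 34 to 56.7 and 21.3 to 33.2, with 3 of 8 called higher and 1 lower in Fn14koMRL against MRL/MpJ. In MRL/lpr 0 of them were called against either strain. Of 7 measured T cell markers 0 were called higher and 3 lower in Fn14koMRL against MRL/MpJ, and *Cd3g* was not well above background in any sample. In MRL/lpr 0 T cell markers were called against MRL/MpJ, and 1 was called higher than in Fn14koMRL. Hippocampal markers were called higher in MRL/lpr for 5 of 8 against MRL/MpJ, and 5 of 9 striatal markers were called higher in Fn14koMRL than in MRL/MpJ. Against Fn14koMRL, 6 hippocampal markers were called higher in MRL/lpr and 1 lower. In Fn14koMRL against MRL/MpJ, 1 hippocampal marker was called higher and 2 lower. Striatal markers in MRL/lpr were called lower for 2 against MRL/MpJ and 5 against Fn14koMRL, and higher for 0. The part of these cell types and of the dissection in the levels of the members was not tested.

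Over the 12 mice, the genes whose log2 level followed *B2m* most closely among 8864 were the procollagen enhancer gene *Pcolce* (Pearson r = 0.887), the dicarboxylate transporter gene *Slc13a3* (0.887), *H2-Q2* (0.864), *Trim24* (0.851) and the collagen gene *Col1a2* (0.849). *H2-T23* ranked 25 with 0.782, *H2-K1* 30 with 0.771 and *Tap2* 364 with 0.572. These ranks did not hold with 10 mice, where among 17936 genes *Ap3b1* (0.978), *Slc24a3* (0.963) and *Hs3st4* (0.959) came first and *H2-T23* ranked 917 (0.797), *Tap2* 1309 (0.753) and *H2-K1* 1376 (0.745). The points share arrays and dyes in pairs, so these values describe the samples and carry no test.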

How the data were processed

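Total RNA of 12 hippocampi was hybridised, 2 mice per array, to Agilent arrays of 60-base probes. The authors scanned the arrays with Feature Extraction and deposited, per spot and dye, intensity values on a linear scale (mean foreground, median local background and processed signal), not normalized between channels. Probe positions are in mm9. Following the study's methods, background was subtracted, spots flagged as outliers or with foreground under 2 times background were left out, and values were scaled to the channel's median of the 10877 spots valid in all 12 samples (25621 for 10 samples). A gene's value is the log2 of the linear mean of its spots and probes. Where no spot passed, no filter was used and a floor of 1% of the channel median was set. No column of other samples was left unused (0).

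Tests used limma 3.58.1 and statmod 1.5.0 in R 4.3.3 (eBayes with trend, Benjamini-Hochberg over all genes), with array as random block (correlation 0.71), and exact permutation tests in scipy 1.17.1 (numpy 2.4.6, pandas 2.3.3, Python 3.11.15); figures used matplotlib 3.10.9. A simulated data set was used to check the fit. The number of arrays and signal over background limit the precision. The members and lists were chosen with earlier results of these data known. All members are named, and of each other list up to 4 genes called in the 10-mouse comparison, which was chosen after its values were seen, and *Tnfrsf12a*. A result on a further gene is not reported here. Alternatives were the block, the weak array, sample weights, background correction (normexp, negative controls), quantile normalization, the processed signal, averaging, dye, replicate block, pairs of groups, the filter, the methods' t-test and each replicate left out.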

Additional observations from a re-analysis of the deposited data

Results flagged for a closer look

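Among 30 groups of 4 samples (each member in each strain), 1 had a sample far from the others, about as many as chance gives (about 1 in 20 groups). It was *Tap1* in MRL/lpr, where replicate 4 lay far above the other 3 on the log2 scale (0.669 against 0.0604 to 0.0836), with a gap of 0.865 of the range of the group. This sample is the Cy5 channel of the weak array, and its *Tap1* signal was not well above background.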

How the results depend on the processing

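No member was called in any comparison with 12 mice under the fit without array block, normexp, quantile normalization, processed signal, negative-control background, log averaging, no dye covariate or the replicate block, nor with any 1 replicate left out. Leaving out the weak array changed this: with the block 7, 5 and 3 members were called (MRL/lpr against MRL/MpJ, Fn14koMRL against MRL/MpJ, MRL/lpr against Fn14koMRL), of 5135, 6412 and 2847 genes, and without it 6 and 3, and 0 in the last, of 2818, 3785 and 1636. Estimated sample weights called 5, 4 and 6 members, of them 4, 2 and 4 higher. Of these 4, 1 and 1 came from the filtered genes, of which 913, 2795 and 603 were called, and the others from the genes without the filter, where 38.7%, 68.5% and 83.7% were called. Fitting Fn14koMRL and MRL/MpJ alone called 6 members (5 higher, *Tap1* lower) of 6372 genes. In each of the other 2 pairs 0 members and 0 filtered genes were called. Without the filter 8 genes were called in MRL/lpr against MRL/MpJ alone and 7 in MRL/lpr against Fn14koMRL alone. All genes called numbered 813, 46 and 353 without array block, 51 and 30 without the filter (against 7 and 4 in the comparisons with MRL/lpr), 11 without the dye covariate in MRL/lpr against MRL/MpJ, 2 and 2 with quantile normalization, 0 and 1 with the processed signal and 2 with the negative-control background in MRL/lpr against Fn14koMRL. The methods' t-test gave 1403, 1493 and 1155 genes unadjusted, 424, 527 and 341 with the composite criterion (1 member, *H2-K1*, in Fn14koMRL against MRL/MpJ by either) and 0, 8 and 0 after Benjamini-Hochberg. With 12 mice 0% of genes at 10 to 15 Mb from *Tnfrsf12a* were called in Fn14koMRL against MRL/MpJ. There 26.8% did not overlap between these groups, against 19.7% on other chromosomes. The share was 17.8% within 5 Mb, 19% at 5 to 10 Mb, 31% at 15 to 30 Mb and 23.9% beyond 30 Mb. With 10 mice 20.5% at 10 to 15 Mb did not overlap, against 18.3% on other chromosomes and 18.9% to 22.6% in the other intervals. With 1 replicate left out, 4 to 29 genes were called in MRL/lpr against MRL/MpJ and 1 to 20 in MRL/lpr against Fn14koMRL.

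The sample numbers did not pair the mice across strains, since the correlations of same-numbered samples were of both signs. With the replicate block 1 gene was called in MRL/lpr against Fn14koMRL, and no member changed its call or direction.

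Several log2 differences changed sign. For MRL/lpr against MRL/MpJ without the weak array *Tap1* was -0.62, *Tapbp* 0.47 and *Nlrc5* -1.26; *Tap1* was -0.40 with quantile normalization; *Psmb8* was -0.80 with quantile normalization, -0.31 with the negative-control background and -0.28 with sample weights. For Fn14koMRL against MRL/MpJ without the weak array *Tapbp* was 0.090, *Psmb8* 0.11 and *Psmb9* 0.23, and with these groups alone 0.12, 0.14 and 0.26. With the processed signal they were 0.083, 0.70 and 0.81, and with the negative-control background 0.046, 0.65 and 1.01, with *Nlrc5* at 0.042. With quantile normalization *Psmb8* was 0.18 and *Psmb9* 0.27. For MRL/lpr against Fn14koMRL without the weak array *H2-D1* was 0.62, *Tapbp* 0.38, *Nlrc5* -0.21 and *H2-T23* 0.40. *H2-T23* was 0.73 with sample weights, 0.046 with the negative-control background and 0.029 by the methods' t-test values. *Psmb8* was -0.97 with the negative-control background and -0.99 with quantile normalization, where *Psmb9* was -0.057. With normexp *H2-D1* was 0.12 and *B2m* -0.0072. The causes were not tested.

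With 1 replicate left out, the sign also changed for these ranges. In MRL/lpr against Fn14koMRL they were -0.16 to 0.48 for *H2-K1*, -0.54 to 0.10 for *H2-D1*, -0.031 to 0.36 for *B2m*, -0.49 to 0.11 for *H2-T23* and -0.19 to 0.51 for *Psmb8*. In MRL/lpr against MRL/MpJ they were -0.33 to 0.37 for *Psmb8* and -0.11 to 1.09 for *Tap1*, and in Fn14koMRL against MRL/MpJ -0.40 to 0.11 for *Psmb8* and -0.50 to 0.091 for *Psmb9*. The differences of *H2-K1*, *H2-D1*, *H2-T23*, *B2m* and *Tap2* from MRL/MpJ stayed above 0 in both strains under 24 alternatives. Signal limits *H2-D1*, *H2-T23*, *Tap1*, *Tapbp*, *Psmb8*, *Psmb9* and *Nlrc5*, whose channels were not all well above background.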
